A study of Mus musculus with 9 samples.

Results

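The genes of the proteasome were followed in 4 myeloid cell populations sorted from inflamed mouse lung. Members were all genes whose single symbol consists of Psm, a letter from a to g and a number. The pattern took 49 of the 18193 genes on the arrays, and 2 of these, Psmc3ip and Psme3ip1, code for no proteasome subunit, which left 47 proteasome genes. Where several probe sets of the array measured a gene, the one with the highest mean over all 9 arrays stood for it. The study used lungs of female 4get mice on the BALB/c background, aged 6 to 8 weeks, in which green fluorescent protein reports expression of the Il4 gene. All mice carried this reporter and all received 0.5 µg of the cytokine IL-25 in 50 µL into the trachea each day for 4 days, so no untreated lung was measured. CD11b+ cells pooled from 4 donor mice were sorted for each sample, 400000 cells at a time, and 50 ng of total RNA was amplified for the array. The T2M gate (3 arrays) took reporter-positive, IL-5Rα-negative cells that carried the macrophage antigen coded by Adgre1, with low MHC class II and intermediate Gr-1. The Eosinophils gate (2 arrays) took reporter-negative, IL-5Rα-positive cells without the Adgre1 antigen, with low MHC class II and high Gr-1. The Neutrophils gate (2 arrays) took reporter-negative, IL-5Rα-negative cells without the Adgre1 antigen, with low MHC class II and positive for Gr-1. The Macrophages gate (2 arrays) took reporter-negative, IL-5Rα-negative cells with the Adgre1 antigen and MHC class II, and negative for Gr-1.

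The proteasome is the protease complex that degrades proteins tagged with ubiquitin. Its core particle stacks outer rings of alpha subunits on inner rings of beta subunits, and only Psmb5, Psmb6 and Psmb7 of the standard beta ring cut peptide bonds. Interferon induces Psmb8, Psmb9 and Psmb10, which take the places of those 3 and form the immunoproteasome, a source of peptides for MHC class I. Caps sit on the core: the regulatory particle, with its ATPases (Psmc genes) and other subunits (Psmd genes), and the activators coded by Psme genes. Chaperones (Psmg genes for the core, Psmd5, Psmd9 and Psmd10 for the cap) assist assembly.

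The array labels did not match all marker genes, so the populations are named here by the label of their arrays. Over 8 eosinophil markers the mean log2 level was 9.35 to 9.73 on the T2M arrays, against 6.06 to 7.08 on the Eosinophils arrays. The IL-5 receptor gene Il5ra itself stood at 7.18 to 8.05 on the T2M arrays and at 4.60 and 5.77 on the Eosinophils arrays. Over 11 neutrophil markers the mean was 11.4 to 11.9 on the Eosinophils arrays, above the 7.66 and 9.07 of the Neutrophils arrays. Over 11 macrophage and monocyte markers the mean was 9.30 to 9.88 on the T2M arrays, 9.07 and 9.14 on Eosinophils, 10.80 and 10.83 on Neutrophils, and 9.13 and 9.40 on Macrophages. Of these markers 4 were called higher and 3 lower in T2M than in Macrophages, from 4.01 for the complement gene C1qb to -2.96 for the chemokine receptor gene Cx3cr1. Over 9 dendritic cell markers, MHC class II genes among them, the mean was highest on the Macrophages arrays (10.6 and 10.7), against 8.31 to 9.34 for T2M. The 2 Macrophages arrays were nearly the same (r = 0.994 over all probe sets, against 0.915 to 0.970 for other arrays of 1 label). Neutrophils replicate 2 correlated with the Macrophages arrays at 0.953 and 0.954, and with Neutrophils replicate 1 at 0.915.

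Each of the 47 proteasome genes had its lowest label mean in T2M or Eosinophils. T2M minus Macrophages was below 0 for 44 of them and above 0 for 3, and T2M minus Neutrophils was below 0 for 43 and above 0 for 4. The T2M mean was the lowest of the 4 labels for 18 genes and the Eosinophils mean for the other 29. The Macrophages mean was highest for 28 genes, the Neutrophils mean for 17, and the T2M mean for 2, Psmc4 and Psmc6, both ATPases of the cap. For these 2, T2M replicate 1 was the highest T2M array (11.38 and 10.87). T2M replicate 3 (9.80 and 9.09) lay below the Macrophages means of 10.08 and 9.75. The median log2 difference of the 47 genes was -1.01 for T2M minus Macrophages (0.18 over all genes), -0.88 for T2M minus Neutrophils (-0.03) and 0.19 for T2M minus Eosinophils (0.06). The median against Neutrophils was -1.42 without Neutrophils replicate 1 (0.04 over all genes) and -0.44 without replicate 2 (-0.10). In bulk RNA, a lower level can stem from fewer cells of a type or less RNA per cell, and these cannot be told apart.

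Calls used limma on all 9 arrays, with Benjamini-Hochberg adjustment over all 18193 genes and a threshold of 0.05. Against Macrophages, 21 of the 47 genes were lower in T2M and 0 higher, where 10.6% of all genes were called lower and 6.53% higher. Of these calls over all genes 62.0% were lower, and 73.2% were with the arrays set to a common median. At an unadjusted limma p under 0.05, 27 members were lower and again 0 higher (18.5% and 18% of all genes). Against Neutrophils, 4 were lower and 0 higher (1.57% and 1.25% of all genes), with 25 lower and 0 higher at an unadjusted p under 0.05 (10.3% and 5.97%). Against Eosinophils, 1 was higher and 0 lower (1.57% and 2.89% of all genes), with 5 higher and 2 lower unadjusted (8.44% and 8.67%). On all their arrays, 32 genes were lower in T2M than in Macrophages and 0 higher (27.7% and 40.7% of all genes did not overlap in these directions). Against Neutrophils 24 were lower and 0 higher (15.1% and 10.7%), and against Eosinophils 3 were lower and 7 higher (14% and 19.4%). An F test over the 4 labels called 20 of the 47 genes, 42.6%, against 17.8% of all genes. The calls against Macrophages rested on counting the 2 nearly identical arrays as separate samples. With their mean taken as 1 sample, the calls among the 47 were lost, and so were most calls over all genes. The median difference of the 47 genes stayed at -1.01. Leaving out Macrophages replicate 1 or 2 gave medians of -1.02 and -1.05, again with most calls lost among the members and over all genes.

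**Figure D1:**
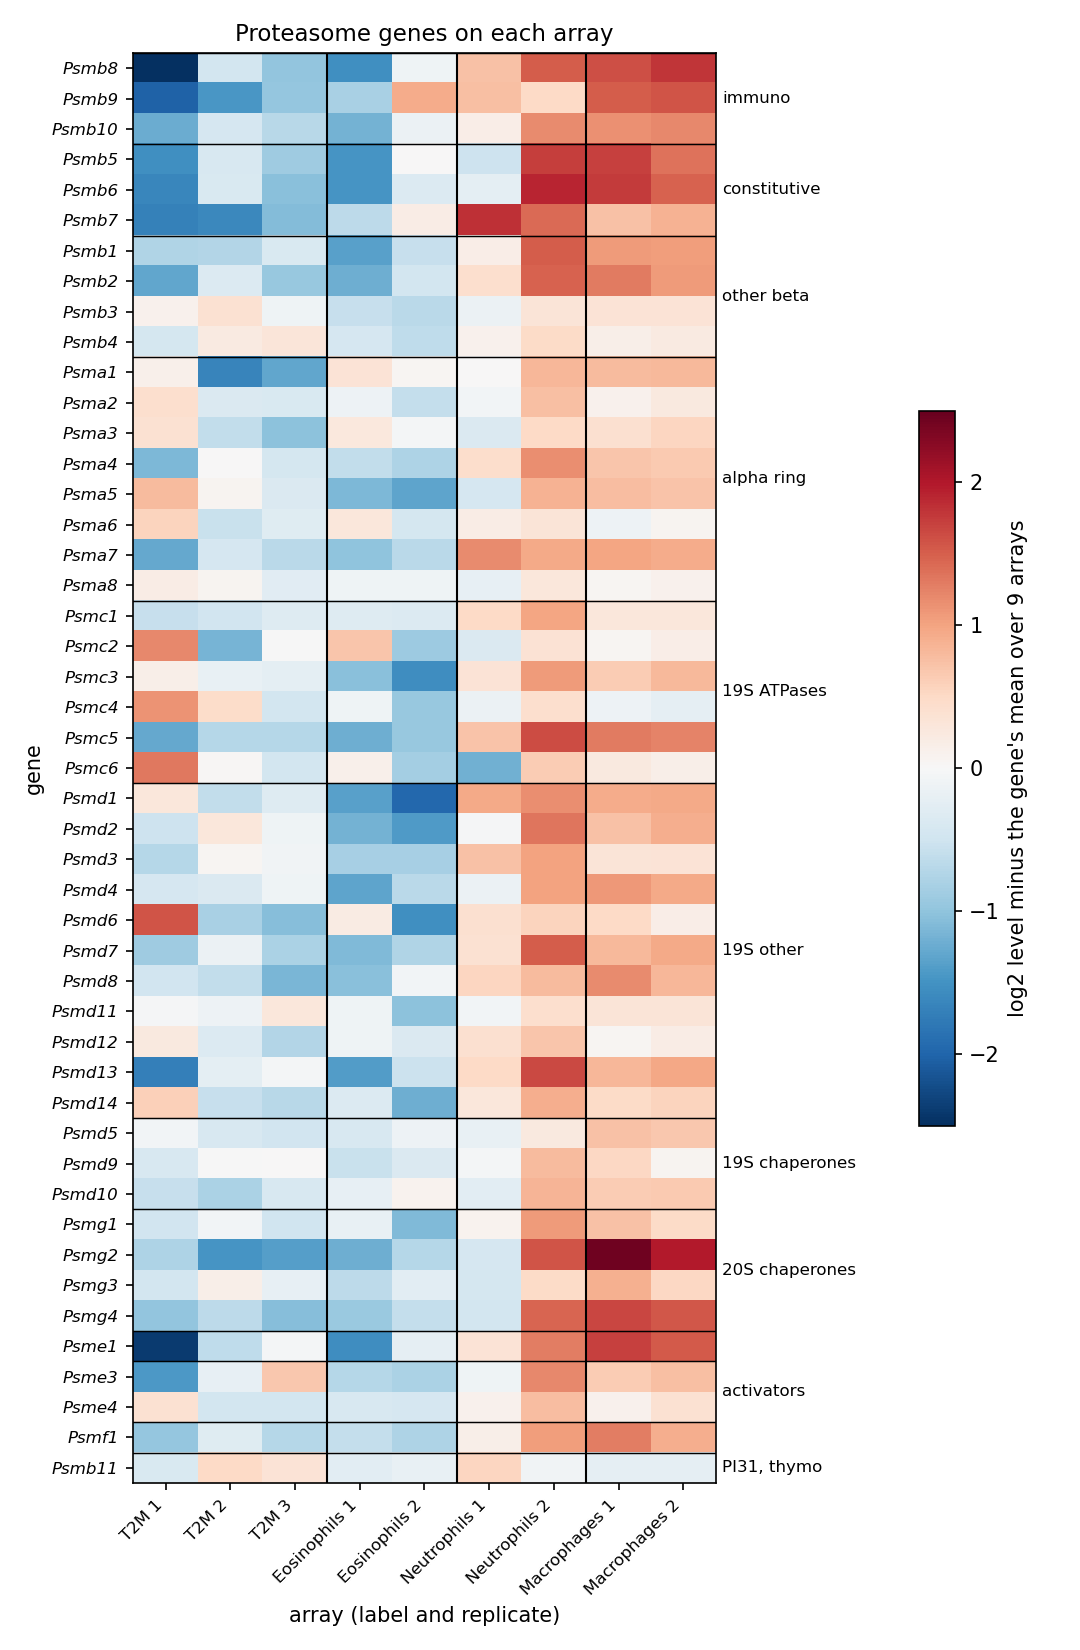
Heat map of the 47 proteasome genes (rows, grouped by role) on the 9 arrays (columns, T2M at the left). Colour gives the log2 level minus the gene's mean over the 9 arrays, red above it and blue below it. The Macrophages columns are above the gene mean for 44 and 45 of the 47 genes, and the T2M columns for 5 to 16.

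The immunoproteasome subunits were lower in T2M than in Macrophages, while the order of T2M and Eosinophils turned with single arrays for Psmb8 and Psmb10. Psmb8, the immune form of the chymotrypsin-like subunit, had log2 levels of 7.27, 9.33 and 8.81 on the T2M arrays, 8.27 and 9.70 on Eosinophils, 10.53 and 11.31 on Neutrophils, and 11.41 and 11.60 on Macrophages. All T2M arrays lay below every Neutrophils and Macrophages array and overlapped with Eosinophils. Psmb8 was 8.18 times lower in T2M than in Macrophages (log2 difference -3.03, SE 0.64, limma adjusted p = 0.0166). Against Neutrophils the difference was -2.45 (SE 0.64, limma adjusted p = 0.0912), and against Eosinophils -0.51 (SE 0.64, limma adjusted p = 0.812). The last of these turned to 0.20 without Eosinophils replicate 2 and to 0.090 without T2M replicate 1.

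Psmb9, the immune form of the caspase-like subunit, had 7.95, 8.51 and 8.997 on T2M arrays, 9.15 and 10.90 on Eosinophils, 10.72 and 10.47 on Neutrophils, and 11.49 and 11.55 on Macrophages. Each T2M array was below all 6 others. Its difference from Macrophages was -3.03 (SE 0.50, limma adjusted p = 0.00659). Those from Neutrophils (-2.11) and Eosinophils (-1.54) had limma adjusted p = 0.069 and 0.146. Psmb10, the immune form of the trypsin-like subunit, had 8.16, 8.97 and 8.70 in T2M, 8.21 and 9.24 in Eosinophils, 9.55 and 10.58 in Neutrophils, and 10.55 and 10.60 in Macrophages. T2M and Eosinophils overlapped, and both lay below the remaining labels. The difference from Macrophages was -1.96 (SE 0.42, limma adjusted p = 0.0182), from Neutrophils -1.46 (limma adjusted p = 0.121) and from Eosinophils -0.11 (limma adjusted p = 0.953). The last turned to 0.40 without Eosinophils replicate 2, 0.11 without T2M replicate 1 and 0.099 with quantile normalization.

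The constitutive catalytic subunits were lower in T2M than in Macrophages too. Psmb5, the chymotrypsin-like subunit, had 6.98, 8.11 and 7.63 on T2M arrays, 7.03 and 8.53 on Eosinophils, 8.00 and 10.23 on Neutrophils, and 10.22 and 9.87 on Macrophages. The Neutrophils arrays spanned most of the range of all arrays, and one of them fell within the T2M values. The T2M mean was 5.54 times lower than the Macrophages mean (log2 difference -2.47, SE 0.69, limma adjusted p = 0.0432). Psmb6, the caspase-like subunit, had 7.45, 8.71 and 8.03 in T2M, 7.60 and 8.73 in Eosinophils, 8.83 and 10.99 in Neutrophils, and 10.83 and 10.56 in Macrophages. It was 6.202 times lower in T2M than in Macrophages (-2.63, SE 0.65, limma adjusted p = 0.029). Against Eosinophils, Psmb5 differed by -0.20 and Psmb6 by -0.10 (limma adjusted p = 0.946 and 0.976), and without Eosinophils replicate 2 these turned to 0.55 and 0.46.

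Psmb7, the trypsin-like subunit, separated all 4 labels. It had 7.28, 7.35 and 7.89 on T2M arrays, 8.31 and 9.16 on Eosinophils, 10.80 and 10.38 on Neutrophils, and 9.71 and 9.84 on Macrophages, with no overlap between any 2 labels. T2M was 8.49 times lower than Neutrophils (-3.09, SE 0.32, limma adjusted p = 0.00598) and 4.81 times lower than Macrophages (-2.27, SE 0.32, limma adjusted p = 0.00382). Against Eosinophils the difference was -1.23 (SE 0.32, limma adjusted p = 0.0762). Psmb7 had its highest level in Neutrophils, unlike the other 5 catalytic genes.

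**Figure D2:**
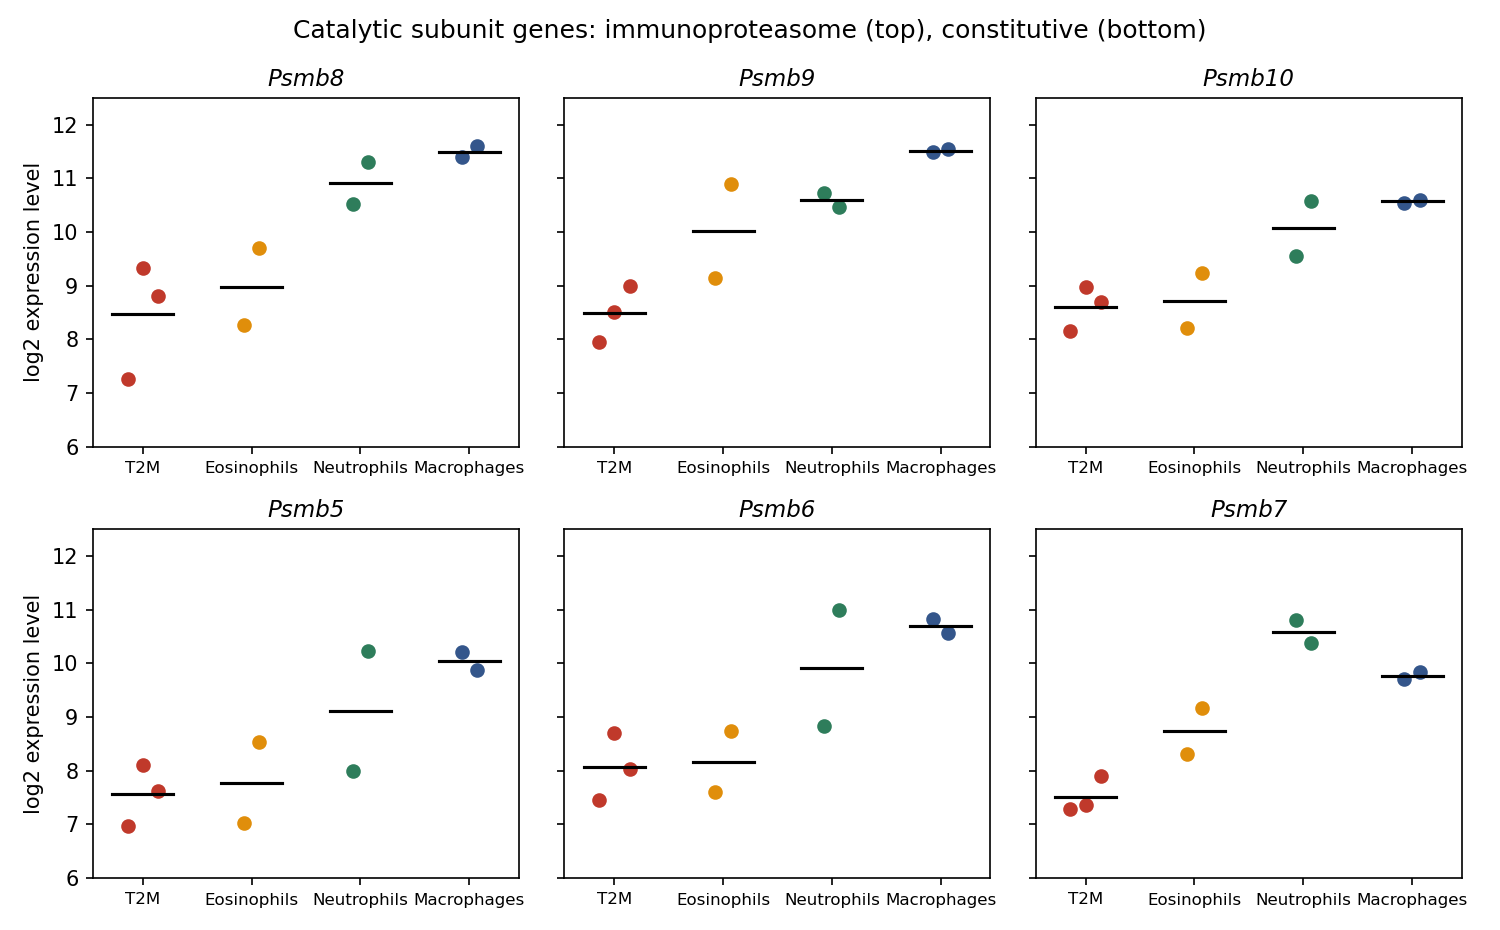
Log2 expression level of the 6 catalytic subunit genes on each array, by label, with T2M at the left. Points are arrays and bars are label means. For each gene, all 3 T2M points lie below both Macrophages points.

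All 6 catalytic genes were called lower in T2M than in Macrophages, against 15 of the other 41 proteasome genes. Their median difference was -2.55, and -0.89 for the other 41. Against Neutrophils the medians were -1.98 and -0.82, with 1 of 6 and 3 of 41 called lower. Of the 6, only Psmb8 had a further probe set, which was dim. For 11 of the other 41, a second probe set of mean log2 level at least 8 gave a lower difference from Macrophages. The medians of these 11 were -1.30 with the second probe set and -0.28 with the one used. How far the gap between the 6 and the 41 rests on this choice was not tested. Without T2M replicate 1, the array furthest below the others for the 6 catalytic genes, their differences from Macrophages ran from -1.74 (Psmb10) to -2.77 (Psmb9). Psmb5 lost its call whichever T2M array was left out (limma adjusted p = 0.083, 0.0653 and 0.0939 without replicates 1, 2 and 3), with differences from -2.74 to -2.17. Psmb6 lost it without T2M replicate 1 or 3 (limma adjusted p = 0.0589 and 0.0721) and not without replicate 2 (0.0403).

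The mean balance between immunoproteasome and constitutive catalytic genes overlapped between all labels. T2M stood apart from Eosinophils for Psmb9 minus Psmb6 and for Psmb10 minus Psmb7, and from Macrophages for no pair of subunits. Each array was given the mean log2 level of Psmb8, Psmb9 and Psmb10 minus that of Psmb5, Psmb6 and Psmb7. Since every probe set has its own brightness, only the differences of this offset between labels are read, as a description with no test. The offset was 0.56, 0.88 and 0.99 on T2M arrays, 0.90 and 1.14 on Eosinophils, 1.06 and 0.25 on Neutrophils, and 0.90 and 1.16 on Macrophages. Every label overlapped with every other. By label it averaged 0.81 ± 0.22 in T2M (SD, n = 3), 1.02 ± 0.17 in Eosinophils, 0.65 ± 0.57 in Neutrophils and 1.03 ± 0.18 in Macrophages (SD, n = 2 each).

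Both sets had lower means in T2M than in the other labels, with arrays that overlapped those of Eosinophils. The immunoproteasome mean differed by -2.68 and the constitutive mean by -2.46 for T2M minus Macrophages, so the offset differed by -0.22. For T2M minus Neutrophils the sets differed by -2.003 and -2.16, and for T2M minus Eosinophils by -0.72 and -0.51. The immunoproteasome mean was 7.79 to 8.94 on T2M arrays, against 8.54 and 9.95 on Eosinophils. The constitutive mean was 7.24 to 8.06, against 7.65 and 8.81. Eosinophils replicate 1 alone, with 8.54 and 7.65, stood close to the T2M means of 8.52 and 7.71. Pair by pair, the immune form fell further below Macrophages than its constitutive partner for Psmb8 (-3.03, against -2.47 for Psmb5) and Psmb9 (-3.03, against -2.63 for Psmb6). The order was the other way for Psmb10 (-1.96) and Psmb7 (-2.27). Psmb8 minus Psmb5 was 0.29, 1.22 and 1.18 on T2M arrays, and 1.24 and 1.17 on Eosinophils. It was 2.53 and 1.08 on Neutrophils and 1.19 and 1.73 on Macrophages, so T2M overlapped with each other label. Array by array, Psmb9 minus Psmb6 was 0.50, -0.20 and 0.97 in T2M, 1.55 and 2.17 in Eosinophils, 1.89 and -0.53 in Neutrophils, and 0.67 and 0.98 in Macrophages, so every T2M array lay below both Eosinophils arrays. Psmb10 minus Psmb7 was 0.88, 1.62 and 0.81 in T2M, -0.11 and 0.083 in Eosinophils, -1.25 and 0.198 in Neutrophils, and 0.84 and 0.76 in Macrophages. Here every T2M array lay above all Eosinophils and Neutrophils arrays. Against Eosinophils, Psmb9 minus Psmb6 and Psmb10 minus Psmb7 differed in opposite directions, and the mean offset averages over them. Both pairs overlapped between T2M and Macrophages. With the mean of all probe sets in place of the brightest, the offset difference from Macrophages was 0.27 instead of -0.22. Psmb8 was the only one of the 6 genes with a further probe set, which was dim (mean log2 level 4.45).

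**Figure D3:**
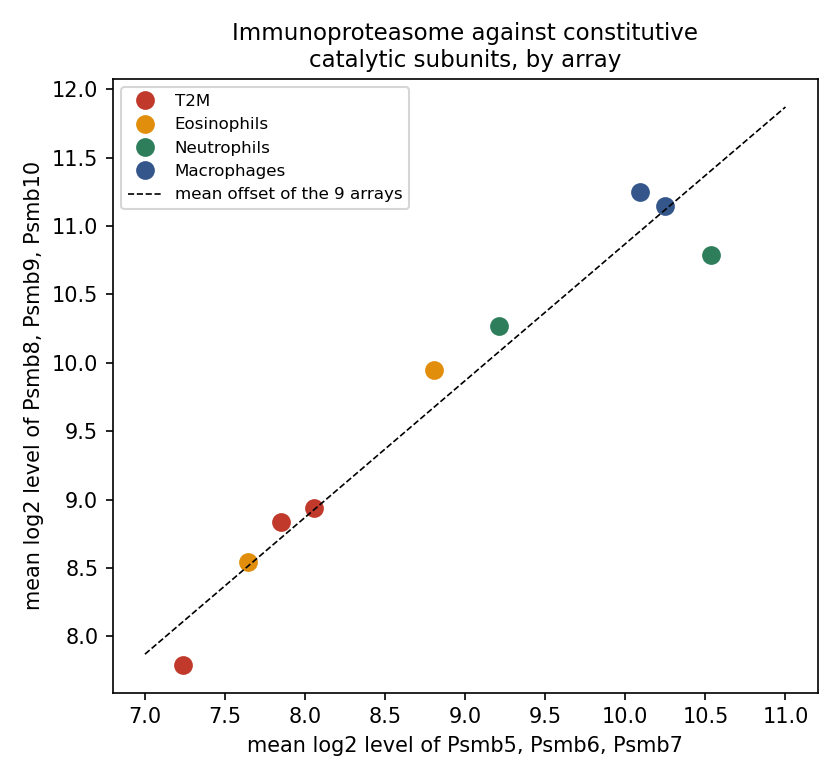
Mean log2 level of Psmb8, Psmb9 and Psmb10 (vertical axis) against that of Psmb5, Psmb6 and Psmb7 (horizontal axis), 1 point per array, coloured by label. The dashed line has slope 1 and the mean offset of the 9 arrays. The T2M points sit at the lower left and the Macrophages points at the upper right, close to the line, with Neutrophils replicate 2 below it.

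Promoters of 5 catalytic genes and of Psme1 are shown because all were called lower in T2M than in Macrophages while interferon is known to act on only some of them. Psmb7 is named only. Each is 300 bases from RefSeq on GRCm38.p6, with 250 bases before and 50 after the start, read 5′ to 3′ on the strand of the gene. Capitals mark matches on either strand to any of 5 letter patterns: GAAA followed by any 2 bases and GAAA (interferon regulatory factor, IRF), TTCNNNGAA (the STAT element GAS), CCAAT, TGACNNNGC (antioxidant element) and GGGCGG (SP1). The locations are chr17:34197945-34198244 on the plus strand for Psmb8, chr17:34187281-34187580 on the minus strand for Psmb9, chr8:105938343-105938642 on the minus strand for Psmb10, chr14:54617946-54618245 on the minus strand for Psmb5, chr11:70525107-70525406 on the plus strand for Psmb6 and chr14:55578244-55578543 on the plus strand for Psme1.
Psmb8: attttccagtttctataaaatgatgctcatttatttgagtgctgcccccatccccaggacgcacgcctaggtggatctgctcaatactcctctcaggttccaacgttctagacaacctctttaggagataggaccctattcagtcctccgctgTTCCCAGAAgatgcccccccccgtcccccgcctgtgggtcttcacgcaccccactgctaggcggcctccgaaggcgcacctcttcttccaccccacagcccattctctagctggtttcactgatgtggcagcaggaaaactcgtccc
Psmb9: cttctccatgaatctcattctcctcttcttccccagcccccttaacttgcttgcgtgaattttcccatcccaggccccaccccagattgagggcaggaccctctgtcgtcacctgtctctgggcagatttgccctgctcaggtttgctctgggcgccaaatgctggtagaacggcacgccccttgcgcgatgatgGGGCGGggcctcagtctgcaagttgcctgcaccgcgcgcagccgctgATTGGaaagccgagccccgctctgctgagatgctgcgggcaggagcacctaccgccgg
Psmb10: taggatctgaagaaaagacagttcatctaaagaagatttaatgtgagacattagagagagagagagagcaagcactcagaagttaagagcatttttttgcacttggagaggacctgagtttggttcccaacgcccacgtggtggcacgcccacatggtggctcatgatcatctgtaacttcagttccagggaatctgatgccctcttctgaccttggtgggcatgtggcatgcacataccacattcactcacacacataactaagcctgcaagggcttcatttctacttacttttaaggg
Psmb5: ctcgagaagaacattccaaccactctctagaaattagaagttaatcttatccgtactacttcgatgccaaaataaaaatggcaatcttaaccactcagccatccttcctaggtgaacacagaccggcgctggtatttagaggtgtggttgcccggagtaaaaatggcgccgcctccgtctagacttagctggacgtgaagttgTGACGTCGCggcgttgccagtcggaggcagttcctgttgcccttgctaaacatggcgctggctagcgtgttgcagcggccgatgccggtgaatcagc
Psmb6: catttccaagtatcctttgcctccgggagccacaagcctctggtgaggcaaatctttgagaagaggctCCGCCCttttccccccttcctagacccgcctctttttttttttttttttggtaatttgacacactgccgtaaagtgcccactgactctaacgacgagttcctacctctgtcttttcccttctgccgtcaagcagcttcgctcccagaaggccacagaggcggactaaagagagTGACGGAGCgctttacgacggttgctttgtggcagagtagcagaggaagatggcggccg
Psme1: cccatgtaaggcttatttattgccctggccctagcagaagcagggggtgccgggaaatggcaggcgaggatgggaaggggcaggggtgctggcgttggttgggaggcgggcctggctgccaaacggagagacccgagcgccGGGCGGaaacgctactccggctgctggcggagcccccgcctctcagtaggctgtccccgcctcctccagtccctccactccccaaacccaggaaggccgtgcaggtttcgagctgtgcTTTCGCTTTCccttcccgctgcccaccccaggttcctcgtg

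In these windows Psmb8 held a GAS match and Psmb9 an SP1 match and a CCAAT match, and that of Psmb10 none of the 5 patterns. Psmb5 and Psmb6 each held an antioxidant match, and Psmb6 also an SP1 match. Psme1 held an IRF match and an SP1 match. Promoters were found in the table for 39 of the 47 genes, with 41 starts. IRF matches stood in 12.2% of these 41 promoters and in 3.44% of all 32851, and the 5 were those of Psmb3, Psmd4, Psmd9, Psme1 and Psmg4. GAS matches stood in 7.32% (8.3% of all), and SP1 matches in 53.7% (35.7% of all). CCAAT was found in 34.1% (37.4% of all) and the antioxidant pattern in 14.6% (12.4% of all). A match describes letters in a window and no match says only that these letters are not there.

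The structural genes of the core particle were divided in their calls. All 8 alpha ring genes had a T2M minus Macrophages difference below 0, and of these Psma7 and Psma1 were called lower. Psma7 had 9.49, 10.36 and 10.10 on T2M arrays, 9.77 and 10.10 on Eosinophils, 11.95 and 11.72 on Neutrophils, and 11.76 and 11.71 on Macrophages, so T2M and Eosinophils overlapped and lay below the other labels. It was 3.60 times lower in T2M than in Neutrophils (-1.85, SE 0.29, limma adjusted p = 0.0209) and 3.36 times lower than in Macrophages (-1.75, SE 0.29, limma adjusted p = 0.00684). Psma1 differed from Macrophages by -1.75 (SE 0.50, limma adjusted p = 0.0476), with T2M values from 7.11 to 8.88. Psma4 had -1.19 and a limma adjusted p = 0.0541. Psma5 stood above Eosinophils on all T2M arrays (1.39, SE 0.43, limma adjusted p = 0.133). The testis form Psma8 stayed at 4.95 to 5.52 on all 9 arrays.

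Of the 4 non-catalytic beta ring genes, Psmb2 and Psmb1 were lower in T2M than in Macrophages, by -2.05 (SE 0.42, limma adjusted p = 0.0146) and -1.68 (SE 0.41, limma adjusted p = 0.0283). Psmb2 had 8.88, 9.84 and 9.23 on T2M arrays, against 11.48 and 11.25 on Macrophages. Psmb3 and Psmb4 differed by only -0.22 and -0.15 with the probe set used, and neither passed. Psmb11, the catalytic gene of the thymus, stayed at 4.36 to 5.28 on all arrays.

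The probe set mattered for several of these genes. The 49 genes had 103 probe sets, and 27 genes had more than 1, so the brightest probe set is not the only reading of them. For T2M minus Macrophages, 14 of these 27 had probe sets of mixed sign and 13 of the same sign, dim probe sets included. Psmb1 had -1.68 with its brightest probe set, and 0.35 and 0.14 with its dimmer ones. For 11 proteasome genes the next brightest probe set also had a mean log2 level of at least 8, a minimum chosen after seeing the data. In all 11 it gave a lower T2M minus Macrophages difference than the brightest did, with medians of -1.30 and -0.28. The same held for 8 of 11 against Neutrophils (medians -1.10 and -0.26) and for 9 of 11 against Eosinophils (-0.22 and 0.56). Psmb3 differed from Macrophages by -3.14 with its second probe set, against -0.22, and Psmb4 by -2.16, against -0.15. Psmc4, high in T2M with its brightest probe set (0.55), had -0.998 with the second.

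**Figure D4:**
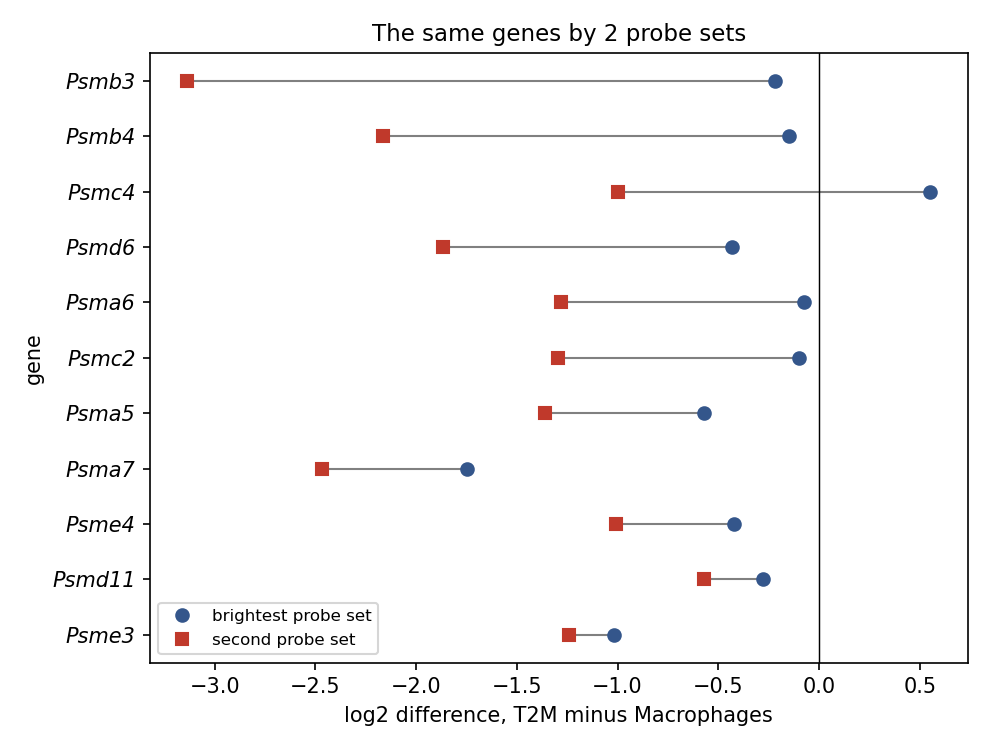
Log2 difference T2M minus Macrophages (horizontal axis) for the 11 proteasome genes with a second probe set of mean log2 level 8 or more. Circles are the brightest probe set and squares the second. Every square lies to the left of its circle, by the most for Psmb3.

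The Gapdh measure of RNA quality separated T2M from Neutrophils and Macrophages, while Eosinophils overlapped with each other label. The difference between the 3′ and 5′ control probe sets of Gapdh was 3.43, 2.35 and 2.97 on T2M arrays, 2.41 and 1.09 on Eosinophils, 2.20 and 1.45 on Neutrophils, and 1.02 and 1.20 on Macrophages. That of beta-actin was 0.61 on T2M replicate 1 and 0.54 on Eosinophils replicate 1, and lay between -0.10 and 0.03 on the other 7 arrays. Their part in the differences of proteasome genes was not tested. Without the 2 arrays of high actin difference, the median of the proteasome genes was -1.14 for T2M minus Macrophages (0.17 over all genes). For T2M minus Neutrophils it was -1.02 (-0.04 over all genes). Against Eosinophils, with 1 array left in that label, the median was 0.23 (0.06 over all genes) and Psmb9 differed by -2.15.

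Among the 6 ATPases of the regulatory particle, Psmc5 was lower in T2M than in both Neutrophils and Macrophages. It had 6.84, 7.40 and 7.40 on T2M arrays, 6.89 and 7.16 on Eosinophils, 8.83 and 9.75 on Neutrophils, and 9.41 and 9.36 on Macrophages, again in a low and a high pair of labels. The differences were -2.08 from Neutrophils (SE 0.32, limma adjusted p = 0.0198) and -2.17 from Macrophages (SE 0.32, limma adjusted p = 0.00436). Psmc1 had 9.07, 9.18 and 9.32 in T2M, against 10.14 and 10.63 in Neutrophils, and was lower by -1.19 (SE 0.22, limma adjusted p = 0.0362). This call of Psmc1 held in 1 of 9 fits with an array left out and in 2 of 10 other settings, and its difference was -0.56 with the mean over probe sets. Psmc3 was above Eosinophils on every T2M array (1.21, SE 0.29, limma adjusted p = 0.0598). T2M replicate 1 stood above the other 2 T2M arrays for Psmc2, Psmc4 and Psmc6, and Psmc2 had 10.85, 8.49 and 9.63.

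Among the 11 other subunits of that particle, Psmd1 carried the only call between T2M and Eosinophils. Psmd1, a large scaffold subunit, had 9.33, 8.44 and 8.74 on T2M arrays, 7.69 and 7.10 on Eosinophils, 10.01 and 10.23 on Neutrophils, and 9.99 and 10.004 on Macrophages. T2M lay between Eosinophils and the other labels with no overlap. It was 2.72 times higher in T2M than in Eosinophils (1.44, SE 0.31, limma adjusted p = 0.0418) and lower than in Macrophages by -1.16 (SE 0.31, limma adjusted p = 0.0391). The Psmd1 call against Eosinophils held in 2 of 9 fits with an array left out and in 4 of 10 other settings, with limma adjusted p up to 0.262 (without Eosinophils replicate 2) and differences from 1.14 to 1.74. Psmd2, the other large scaffold subunit, was also above Eosinophils on every T2M array without being called (1.19, SE 0.41, limma adjusted p = 0.169).

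Psmd8, Psmd7 and Psmd4 were lower in T2M than in Macrophages. Psmd8 differed by -1.76 (SE 0.34, limma adjusted p = 0.013), Psmd7 by -1.49 (SE 0.37, limma adjusted p = 0.0306) and the ubiquitin receptor Psmd4 by -1.31 (SE 0.36, limma adjusted p = 0.0412). The remaining 7 had differences from -1.57 (Psmd13, limma adjusted p = 0.0854) to -0.28 (Psmd11), and none passed. Psmd14, the deubiquitinase of the cap, had -0.74 (limma adjusted p = 0.249). Psmd6 varied most among the T2M arrays, with 10.62, 8.24 and 7.97.

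Psmg2, a chaperone of core assembly, was dim on most arrays. It had 4.90, 4.19 and 4.30 on T2M arrays, 4.44 and 4.96 on Eosinophils, 5.26 and 7.24 on Neutrophils, and 8.10 and 7.65 on Macrophages. The T2M mean of 4.46 lay below those of the testis and thymus subunits (5.23 and 4.89), and the values hold no detection call, so a level above background was not shown and no fold is given. The log2 difference from Macrophages was -3.41 (SE 0.54, limma adjusted p = 0.00559). Psmg4, a further core chaperone, had 5.00, 5.33 and 4.91 in T2M, against 7.65 and 7.53 in Macrophages (-2.51, SE 0.49, limma adjusted p = 0.0125), with T2M at the same low end. With the mean over its probe sets, Psmg4 differed by -0.97 and Psmg2 by -2.31. Psmg1 and Psmg3 had -0.96 and -0.87 and did not pass. Of the cap chaperones, Psmd10 (-1.24, limma adjusted p = 0.0387) and Psmd5 (-1.01, limma adjusted p = 0.0256) were called lower and Psmd9 (-0.42) was not.

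Psme1, a subunit of the interferon-inducible activator PA28, followed the catalytic genes. It had 7.85, 9.61 and 10.19 on T2M arrays, 8.69 and 10.01 on Eosinophils, 10.59 and 11.53 on Neutrophils, and 11.96 and 11.77 on Macrophages. T2M lay below Neutrophils and Macrophages on every array and overlapped with Eosinophils. It was 6.28 times lower in T2M than in Macrophages (-2.65, SE 0.68, limma adjusted p = 0.0342). The call was lost without T2M replicate 2 (-2.85, limma adjusted p = 0.0621) and kept without replicate 1 (-1.97, limma adjusted p = 0.0369) or 3. Its partner Psme2 was not analysed here, since its probe set carries 2 gene symbols. The activators Psme3, of the nucleus, and Psme4 (PA200) differed from Macrophages by -1.02 and -0.42 without passing. Psmf1, which codes for the proteasome regulator PI31, had 5.75, 6.42 and 6.01 in T2M, against 8.00 and 7.63 in Macrophages (-1.75, SE 0.33, limma adjusted p = 0.011).

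**Figure D5:**
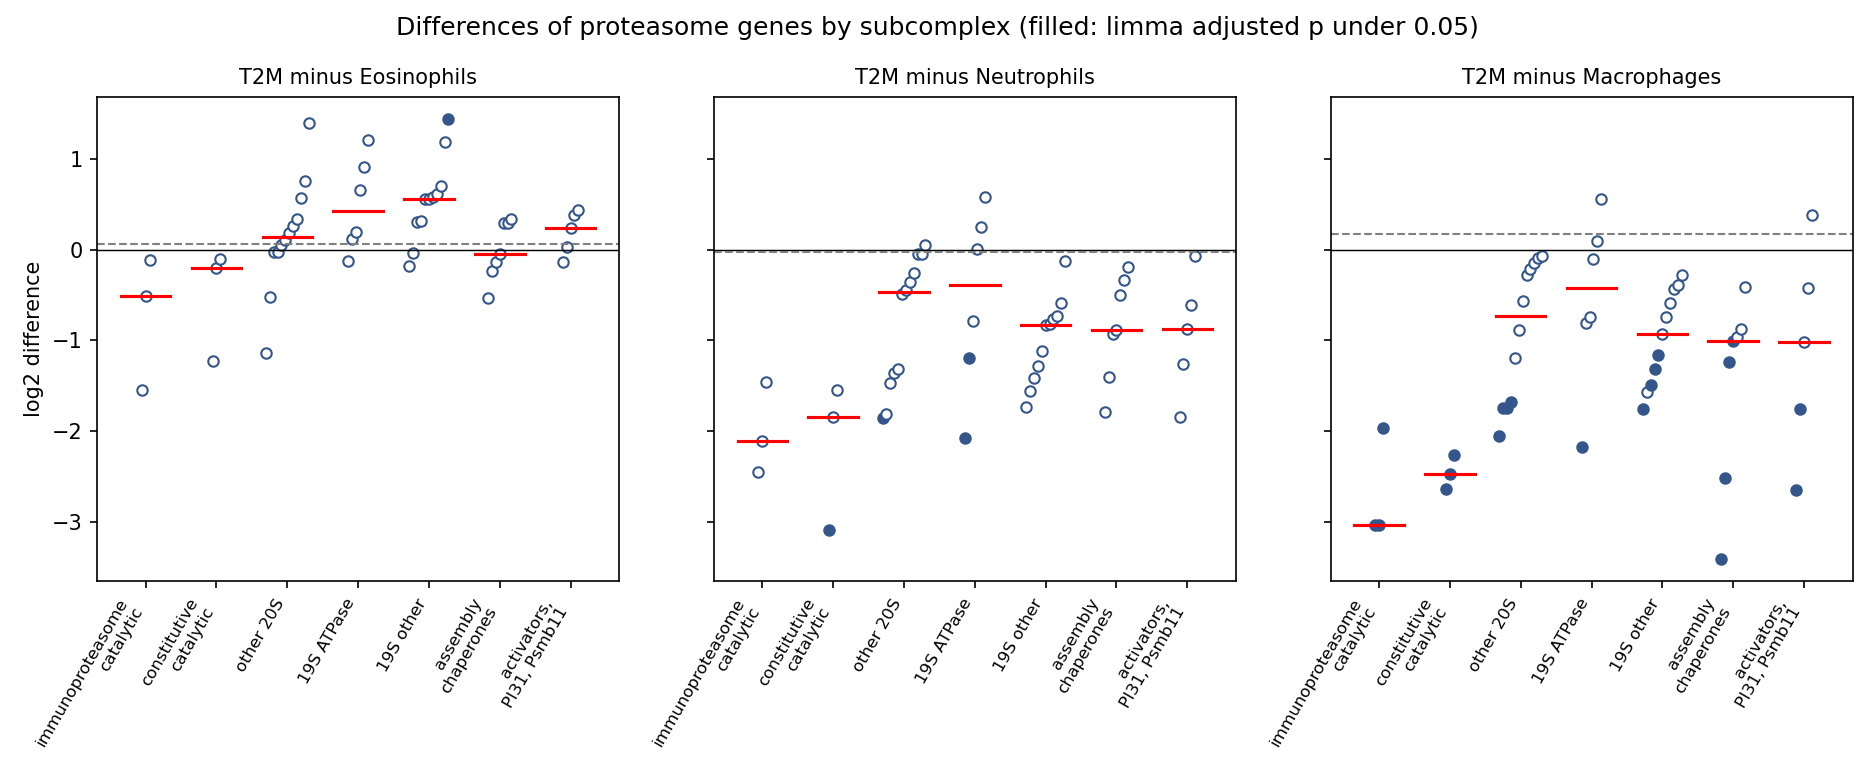
Log2 difference of each proteasome gene (points) between T2M and each other label, by role. Filled points passed a limma adjusted p under 0.05, red bars are medians of the role and the dashed line is the median of all genes. Against Macrophages the 6 catalytic genes lie between -3.03 and -1.96, and 3 of the 47 genes lie above 0.

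Every call between Eosinophils and Neutrophils or Macrophages was lower in Eosinophils. Against Neutrophils, 10 of 47 genes were lower in Eosinophils and 0 higher (4.33% and 3.55% of all genes), with 29 lower and 0 higher at an unadjusted limma p under 0.05 (13% and 8.59%). Psmd1 led (-2.72, SE 0.34, limma adjusted p = 0.00404), followed by Psmc5 (-2.27) and Psmc3 (-1.999). Of the catalytic genes, Psmb7 was called lower (-1.86, limma adjusted p = 0.0186). Against Macrophages, 21 of 47 were lower in Eosinophils and 0 higher (11.5% and 5.89% of all genes), with 32 lower and 0 higher unadjusted (19.3% and 13.9%). With the Macrophages arrays averaged to 1 sample, or replicate 1 or 2 left out, most of these calls were lost, as were most over all genes. The median difference of the 47 genes was then -1.30, -1.35 and -1.39. The 21 included Psmb8 (-2.52), Psmb6 (-2.53) and Psmb10 (-1.85), while Psmb9 (-1.49), Psmb5 (-2.27) and Psmb7 (-1.04) had limma adjusted p = 0.0995, 0.0749 and 0.0806.

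Neutrophils and Macrophages differed in 0 of 47 genes by limma (1.13% of all genes were lower and 1.13% higher). At an unadjusted limma p under 0.05, 1 was higher and 2 lower in Neutrophils (9.92% and 8.7% of all genes). Psmb7 was the 1 that was higher (0.82, SE 0.35, limma adjusted p = 0.265). The Neutrophils arrays differed from each other by more than 1 for 15 of the 47 genes, with a median range of 0.82, against 0.13 between the Macrophages arrays. The difference reached 2.23 for Psmb5. All comparisons with one label share its arrays, so the lists of called genes are not independent of each other.

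Genes that act around the proteasome were read from 3 lists. Of 14 measured genes of MHC class I presentation, 3 were lower in T2M than in Macrophages and 0 higher, with 5 lower and 0 higher unadjusted. Over all genes 10.6% were called lower and 6.53% higher, and 18.5% and 18% unadjusted. The 3 were Tapbpl, a peptide editor (-1.86, limma adjusted p = 0.00439), the chaperone gene Calr (-1.55, limma adjusted p = 0.0365) and the peptide transporter gene Tap1 (-1.29, limma adjusted p = 0.0452). Against Neutrophils 0 of the 14 passed by limma, with 1 higher and 3 lower at an unadjusted p under 0.05 (5.97% and 10.3% of all genes). Against Eosinophils, Pdia3, a disulfide isomerase of peptide loading, was higher (1.36, limma adjusted p = 0.023), and Nlrc5, the activator of class I genes, was lower (-1.34, limma adjusted p = 0.0376). The list's median was -0.60 for T2M minus Macrophages and -0.24 for T2M minus Eosinophils.

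Among 11 genes of interferon signalling, the ligand-binding receptor chain Ifngr1 was lower in T2M than in each other label. It had 8.85, 8.61 and 8.74 on T2M arrays, 10.58 and 11.12 on Eosinophils, 10.66 and 10.40 on Neutrophils, and 11.03 and 11.18 on Macrophages, without overlap of T2M with any. The differences were -2.12 (limma adjusted p = 0.00402), -1.80 (limma adjusted p = 0.0117) and -2.37 (limma adjusted p = 0.000958). Its partner chain Ifngr2 was lower than in Eosinophils (-1.12) and Macrophages (-0.87), and the receptor's kinase Jak2 lower than in Eosinophils (-1.67). The transcription factor Irf8 was lower than in Neutrophils (-2.11) and Macrophages (-2.70), and Stat2 lower than in Macrophages (-1.66). Ifnar1, a chain of the receptor for type I interferon, was higher than in Macrophages (1.64, limma adjusted p = 0.019). In all, 3 of 11 were lower than in Eosinophils, 2 lower than in Neutrophils, and 4 lower and 1 higher than in Macrophages. The shares of all genes were 2.89% and 1.57% lower, and 10.6% lower and 6.53% higher, in that order. Irf1, the factor best known for driving Psmb9, had 8.09, 9.23 and 9.28 in T2M, against 10.05 and 10.23 in Macrophages (-1.28, limma adjusted p = 0.0911).

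Of 12 further partners of the proteasome, 3 were lower in T2M than in Macrophages and 0 higher, with 6 lower and 0 higher unadjusted (10.6% and 6.53% of all genes called, 18.5% and 18% unadjusted). They were Pomp, the maturation factor of the core (-1.63, limma adjusted p = 0.0154), the ubiquitin shuttle gene Ubqln1 (-1.81, limma adjusted p = 0.00941) and the unfoldase gene Vcp (-1.74, limma adjusted p = 0.0489). Against Neutrophils and against Eosinophils 0 of the 12 passed by limma. Unadjusted, 3 were lower and 0 higher than in Neutrophils (10.3% and 5.97% of all genes). Likewise 2 were lower and 1 higher than in Eosinophils (8.67% and 8.44%). Nfe2l1, the factor known for raising proteasome genes when the protease is inhibited, had 7.52, 7.32 and 7.76 in T2M, against 7.92 and 7.90 in Macrophages (-0.38, limma adjusted p = 0.302).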

How the data were processed

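Each value in the deposited table is a log2 expression level of a probe set, 1 column per array. RMA, affy and limma are named per the submitters' processing notes; versions and the normalization between arrays are not given in the sources used here. The median log2 value of an array lay between 5.48 and 5.68. Of 45101 probe sets, 64 controls were left out, 34945 had 1 symbol, 932 several and 9160 none. The brightest probe set per gene was kept.

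Labels were compared with limma 3.58.1 in R 4.3.3 (lmFit, all 6 pairs, eBayes, two-sided) on all 9 arrays, with 5 residual degrees of freedom and a median SE of 0.308 in contrasts with T2M. The number of arrays limits the precision. In simulated data the test was tried first. Matches of replicate numbers were checked by correlating the deviations of replicate 1 between labels. The correlation was 0.51 between T2M and Eosinophils (0.71 over the proteasome genes alone). These are the 2 arrays of high actin difference. Elsewhere it lay between -0.18 and 0.03 (-0.32 to 0.18). The main fit used no pairing, and the replicate block was fitted as an alternative. Each replicate is a pool of 4 mice.

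The members and gene lists were chosen with earlier results of these data known. Named genes were the catalytic and activator genes, the 8 largest calls of each contrast and direction, the 3 largest uncalled differences, and up to 5 called and 3 uncalled genes per pathway list. Further members were named, after their values were seen, to account for all of them; so were Nfe2l1 and marker genes outside this rule. Promoters came from RefSeq. Alternatives covered probe sets, dim genes, scaling, moderation, array weights, the replicate block and each array left out. Figures were drawn with matplotlib 3.10.9.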

Additional observations from a re-analysis of the deposited data

How the results depend on the processing

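Differences kept their direction more readily than calls. The counts of called proteasome genes are given with the lower and higher calls over all 18193 genes in parentheses. T2M minus Eosinophils had 1 (526 and 286). It became 0 with a common median (627 and 219), trend and robust moderation (471 and 244) or the replicate block (265 and 95). Only the compared labels also gave 0, and the call was lost with the Macrophages arrays averaged. It became 2 with the mean over probe sets (741 and 314), 3 with array weights (864 and 562) and 4 with quantile normalization (485 and 421), all of them higher. T2M minus Neutrophils (4) became 1 with array weights, with the replicate block or with the Macrophages arrays averaged, 0 with only the compared labels and 8 without the arrays of high actin difference. T2M minus Macrophages had 21 (1935 and 1188). It became 35 with array weights, 34 lower and 1 higher (4819 and 5344). With the Macrophages arrays averaged its member calls were lost, and so were most calls over all genes. Eosinophils minus Neutrophils had 10 (788 and 645). It became 5 with array weights (242 and 284) and 1 with only the compared labels. With averaged Macrophages calls were fewer among the members and over all genes. Eosinophils minus Macrophages (21) became 34, 3 and 11 with array weights, averaged Macrophages and without the high-actin arrays. The F test had 20 (17.8% of all genes) and 33 with array weights, and fewer with averaged Macrophages. Its share over all genes in these settings is not given here. The cause of these shifts was not tested. Leaving out each array in turn gave 0 to 3, 1 to 12, 1 to 26, 3 to 17, 3 to 24 and 0 to 2 calls for the 6 pairs, in the order T2M minus Eosinophils, T2M minus Neutrophils, T2M minus Macrophages, Eosinophils minus Neutrophils, Eosinophils minus Macrophages and Neutrophils minus Macrophages, and 4 to 27 for the F test. For T2M minus Macrophages the lowest count came without either Macrophages array, and T2M replicate 3 left 12. The 1 call without T2M replicate 1 or Eosinophils replicate 1 in T2M minus Eosinophils was a lower one. The 26 arose without either Neutrophils array, and the 12 for T2M minus Neutrophils without Neutrophils replicate 1.

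The catalytic offset became 0.27 for T2M minus Macrophages (-0.22) and 0.38 for Eosinophils minus Macrophages (-0.01) with the mean over probe sets. With single arrays left out it ran from -0.33 to -0.08 (T2M minus Eosinophils), -0.25 to 0.56 (T2M minus Neutrophils), -0.35 to -0.09 (T2M minus Macrophages), -0.04 to 0.77 (Eosinophils minus Neutrophils), -0.14 to 0.12 (Eosinophils minus Macrophages) and -0.78 to 0.03 (Neutrophils minus Macrophages).

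Single genes changed sign only where they were not called. For T2M minus Eosinophils these were Psmb6 (0.042 with quantile normalization, 0.015 with array weights), Psmb10 (0.099, quantile), Psme1 (0.14, quantile, and 0.35, weights), Psme3 (-0.067, replicate block) and Psme4 (-0.36, mean over probe sets, and -0.028, without the high-actin arrays). With single arrays left out, T2M minus Eosinophils ran from -0.95 to 0.55 for Psmb5, -0.67 to 0.46 for Psmb6, -1.23 to 0.20 for Psmb8, -0.63 to 0.40 for Psmb10, -0.80 to 0.55 for Psme1, -0.067 to 0.99 for Psme3 and -0.039 to 0.38 for Psme4. Psme4 became 0.0014 (quantile) for T2M minus Macrophages, 0.36 and 0.17 (mean over probe sets) for Eosinophils minus Neutrophils and Eosinophils minus Macrophages, and -0.19 (mean over probe sets) for Neutrophils minus Macrophages. Psmb9 had 0.31 for Eosinophils minus Neutrophils without both high-actin arrays, and -1.44 to 0.31 with single arrays left out. For Neutrophils minus Macrophages, single arrays left out gave -2.05 to 0.19 for Psmb5, -1.87 to 0.30 for Psmb6, -1.02 to 0.0079 for Psmb10, -0.79 to 0.50 for Psme3 and -0.13 to 0.52 for Psme4, and Psme3 had 0.12 with the mean over probe sets. Of the alternative values of single genes, 1282 kept direction and side of the threshold, 164 lost and 55 gained a call, and 32 changed sign. Over all genes, the share of calls that were lower was 62.0% for T2M minus Macrophages and 73.2% with a common median. Quantile normalization gave 53.5% instead of 64.8% for T2M minus Eosinophils, and 43.5% instead of 55.6% for T2M minus Neutrophils.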
